A study of Homo sapiens with 2 samples.

Results

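The genes examined were 10 regulators of the BCL2 family, the proteins that decide whether the outer membrane of the mitochondrion is opened during apoptosis. The rule names them by symbol and sets no threshold on their values, and all 10 were found among the 57820 genes of the count table. Total RNA came from T47D cells, an established human line of estrogen receptor-positive luminal breast cancer, with the Y537S form of ESR1, in which a changed residue of the ligand-binding domain leaves estrogen receptor alpha active when hormone is missing. Before transfection with control siRNA at 25 nM, the cells had been placed in medium without hormone. Both libraries belong to this single labelled group, with no reference condition beside it, so levels were described within this state and no condition was compared with another. The labels do not say how the line was edited or whether it is 1 clone, nor whether the replicates came from separate cultures.

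In this family the guardians (BCL2, BCL2L1, BCL2L2 and MCL1) bind and restrain their relatives. The effectors, here BAX, form the pore through which cytochrome c leaves the mitochondrion. The BH3-only proteins (BAD, BID, BIK, BCL2L11 and PMAIP1) carry stress and growth factor signals, either by occupying the groove of the guardians or by activating the effectors. In luminal breast cancer BCL2 is known as a gene induced by estrogen, and MCL1 and BCL2L1 are known as guardians on which tumour cells can depend.

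The libraries held 41370662 reads on genes in replicate 1 and 37198274 in replicate 2. Levels are given in TPM, reads scaled to the summed exon length of a gene and to the library, which allows genes to be compared per length, and CPM, reads scaled to the library alone, was used to compare the libraries. All 8 luminal markers reached 1 CPM in each library, the limit used here for detection, with the keratin KRT19 at 1385 ± 19.6 TPM and ESR1 at 23.5 ± 3.18 TPM (SD, n = 2). Of 12 measured markers of basal, mesenchymal, immune and endothelial cells, 1 was detected, COL1A1 at 1.11 ± 0.0783 TPM. The basal marker TP63 passed 1 CPM in replicate 1 alone, with 61 and 30 reads. PTPRC had 0 and 17 reads in replicates 1 and 2, and VWF 0 and 12. CD3E, CD68 and CDH5 had no reads in either library. For CD68, other genes of the table cover 85.8% of the exon bases, so its reads may have gone uncounted. Nuclear protein-coding genes held 29.8% of the TPM scale in replicate 1 and 26.4% in replicate 2, so a coding gene with the same CPM in both libraries has a lower TPM in replicate 2.

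All 10 members were detected in both libraries, against 24.5% of all genes and 60.9% of protein-coding genes. Their median level was 9.69 TPM, beside 2.32 TPM over all 19263 protein-coding genes and 9.25 TPM over the 11731 of them that were detected. The members spanned 121-fold in mean TPM, from PMAIP1 at 0.692 to MCL1 at 83.6. Of the 10, 5 lay above the median of detected coding genes and 3 (BCL2L11, BCL2 and PMAIP1) below the median of all coding genes.

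**Figure D1:**
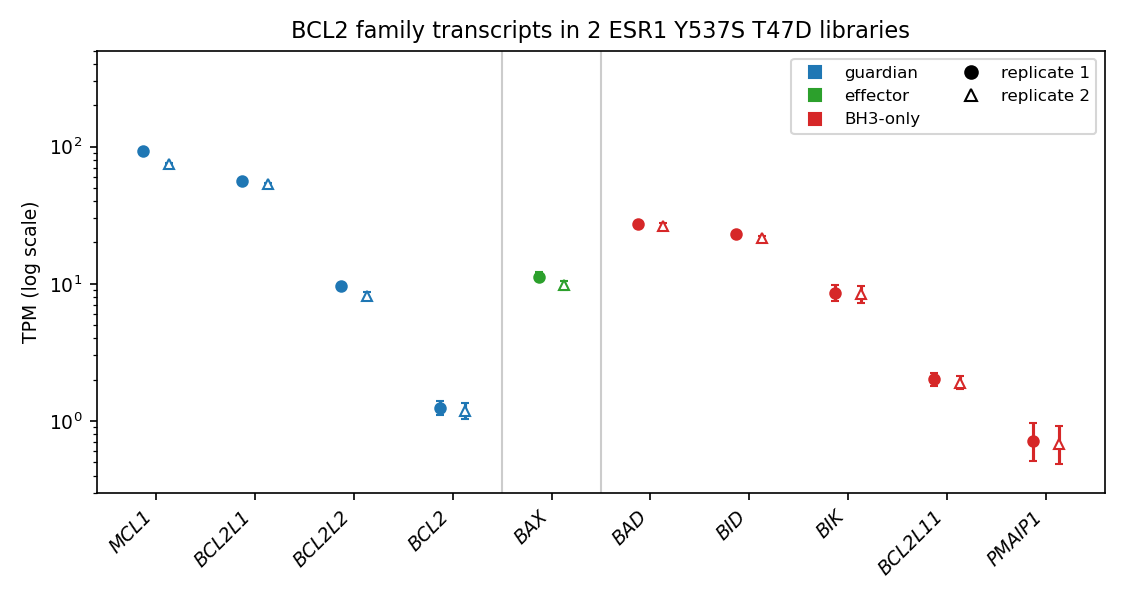
Level of each member in TPM (log scale) in replicate 1 (filled circles) and replicate 2 (open triangles), with exact 95% counting intervals, grouped as guardians, effector and BH3-only genes. MCL1 is highest with 92.7 and 74.5 TPM, and PMAIP1 lowest with 0.709 and 0.675 TPM.

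Among the guardians, MCL1 and BCL2L1 were abundant and BCL2 was scarce. MCL1, a short-lived guardian that is rebuilt continuously from its mRNA, had 10367 and 8334 reads in replicates 1 and 2, or 92.7 TPM (95% counting interval 91.0 to 94.6) and 74.5 TPM (72.9 to 76.1). Its mean of 83.6 ± 12.9 TPM exceeded that of 97.0% of protein-coding genes. The gene (ENSG00000143384.8) lies on the minus strand of chromosome 1, 150547032 to 150552066 in hg19, with 4218 exon bases.

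BCL2L1, whose long isoform is the guardian Bcl-xL and whose short isoform promotes death, had 4922 and 4658 reads, or 56.0 TPM (54.5 to 57.6) and 53.0 TPM (51.5 to 54.6). Its mean of 54.5 ± 2.15 TPM exceeded that of 94.7% of protein-coding genes. Gene-level counts do not separate the isoforms. It is annotated on the minus strand of chromosome 20, 30252255 to 30311792, as ENSG00000171552.8.

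BCL2L2, the guardian Bcl-w, had 1067 and 906 reads, or 9.61 TPM (9.04 to 10.2) and 8.16 TPM (7.63 to 8.71). Other genes cover 24.3% of its 4189 exon bases, mostly the readthrough gene BCL2L2-PABPN1 on the same strand, which shares 813 bases and was itself counted with 3 and 9 reads. The opposite-strand gene PPP1R3E shares 206 bases. By the default of the counter, reads that fit more than 1 gene are not counted, so BCL2L2 can be underestimated. Over the 3170 exon bases that no other gene covers its level was 11.6 TPM.

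BCL2, the founding member of the family, had 253 and 241 reads, or 1.25 TPM (1.10 to 1.41) and 1.19 TPM (1.04 to 1.35). Its mean of 1.22 ± 0.0423 TPM exceeded that of 45% of protein-coding genes. It stands on the minus strand of chromosome 18, 60790579 to 60987361, as ENSG00000171791.10, and has the longest exon sequence of the 10 members, 7665 bases. The counting intervals of the libraries overlapped.

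A ratio of 2 genes is called larger than the spread between replicates where each library's exact 95% counting interval excluded 1, on the same side, and the mean log2 ratio exceeded the 95th percentile of absolute log2 differences between the replicates, taken over genes of like CPM to the lower gene. That spread compares each gene with itself and holds no error between genes, such as that of exon length. MCL1 stood 1.65-fold above BCL2L1 in replicate 1 (1.60 to 1.71) and 1.41-fold in replicate 2 (1.36 to 1.46), larger than the spread. BCL2 stood 68.4-fold below MCL1 in the mean (log2 ratio -6.10 ± 0.17), also larger than the spread. BCL2L2 exceeded BCL2 7.72-fold in replicate 1 (6.72 to 8.89) and 6.88-fold in replicate 2 (5.96 to 7.96).

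MCL1 held 58.1% and 54.4% of the summed TPM of the 4 guardians in replicates 1 and 2, and BCL2L1 held 35.1% and 38.7%. BCL2L2 held 6.02% and 5.96%, and BCL2 0.780% and 0.866%. MCL1 and BCL2L1 thus made up nearly the whole guardian transcript pool in both libraries.

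BCL2L1 was the highest member with a promoter window in the RefSeq table (GRCh38.p14), and its sequence is shown for its AT-rich elements. The 250 bases before its first listed start, chr20:31723964-31724213 on the minus strand, are 50% G or C, the lowest of the 7 members with a window, beside a median of 58.0% over all 35116 windows. The capitals mark TATAAA, searched on both strands, which occurred 2 times here. Any match at all occurred in 10.7% of all windows. The share of windows with 2 matches was not computed, so these counts are a description. MCL1, BCL2L2 and BIK had no window, and where a member had several windows the first listed was read.
BCL2L1: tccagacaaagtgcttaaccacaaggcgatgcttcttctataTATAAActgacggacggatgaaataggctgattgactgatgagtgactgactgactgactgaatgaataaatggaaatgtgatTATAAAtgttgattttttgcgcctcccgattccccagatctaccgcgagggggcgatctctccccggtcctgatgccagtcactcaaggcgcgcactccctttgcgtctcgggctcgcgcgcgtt

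The effector BAX was of middle level. It had 772 and 668 reads, or 11.3 TPM (10.5 to 12.1) and 9.74 TPM (9.01 to 10.5) in replicates 1 and 2, with overlapping intervals. Its mean of 10.5 ± 1.08 TPM exceeded that of 71.9% of protein-coding genes. BAX (ENSG00000087088.15) lies on the plus strand of chromosome 19, 49458072 to 49465055, and shares no exon base with another gene. Of the 10 members 2, BCL2L2 and BAD, share exon bases with another gene, against 41.8% of protein-coding genes.

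BAX stood 9.04-fold above BCL2 in replicate 1 (7.83 to 10.5) and 8.21-fold in replicate 2 (7.08 to 9.56), larger than the spread. BAK1, the other main effector and not among the 10 members, had 29.7 and 26.3 TPM. BAX was 2.67-fold below BAK1 in the mean (log2 ratio -1.42 ± 0.024), larger than the spread. The counting intervals of BAX over BAK1 were wider than this SD of 2 libraries, 0.347 to 0.412 in replicate 1 and 0.337 to 0.405 in replicate 2. Pseudogenes named after BAK1 held 134 and 119 reads against 1787 and 1583 on BAK1 itself, and no pseudogene in the table is named after any of the 10 members.

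The BAX window is shown because CACGTG, the palindromic E-box, recurs in it. The 250 bases before the start, chr19:48954625-48954874 on the plus strand, hold 4 matches, in capitals. At least 1 match occurred in 6.34% of all windows, and 4 or more in 5 of 35116 windows. The motif was chosen for display after the sequence had been seen, so these counts are a description.
BAX: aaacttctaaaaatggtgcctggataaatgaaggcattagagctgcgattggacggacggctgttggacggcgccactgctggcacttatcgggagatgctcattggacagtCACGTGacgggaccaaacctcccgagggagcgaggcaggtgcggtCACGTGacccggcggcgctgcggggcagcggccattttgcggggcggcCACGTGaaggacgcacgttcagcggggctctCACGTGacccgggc

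In TPM, BAD and BID were the most abundant of the 5 BH3-only genes, BIK was intermediate, and BCL2L11 and PMAIP1 were low. BAD, a sensitizer held in check by phosphorylation under growth factor signalling, had 1226 and 1187 reads, or 27.1 TPM (25.6 to 28.6) and 26.2 TPM (24.7 to 27.7). The opposite-strand gene GPR137 shares 404 of its 1708 exon bases, 23.7%, and held 1090 and 1036 reads. Reads in the shared stretch cannot be assigned without strand, and over the 1304 bases that no other gene covers BAD stood at 34.4 TPM. BAD (ENSG00000002330.9) lies on the minus strand of chromosome 11, 64037302 to 64052176.

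BID, which caspase-8 cleaves to link death receptors to mitochondria, had 2678 and 2530 reads, or 22.9 TPM (22 to 23.8) and 21.6 TPM (20.8 to 22.5). It is ENSG00000015475.14 on the minus strand of chromosome 22, 18216906 to 18257536. BAD stood 1.18-fold above BID in replicate 1 and 1.21-fold in replicate 2. Both counting intervals excluded 1, but the step was smaller than the replicate spread. Over bases that no other gene covers, the step from BAD to BID was 1.57-fold and larger than that spread.

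BIK, a BH3-only protein of the endoplasmic reticulum membrane, had 218 and 212 reads, or 8.63 TPM (7.52 to 9.86) and 8.39 TPM (7.30 to 9.60). With 953 exon bases it is the shortest of the 10 genes, and its 5.48 CPM on average lay below the 6.30 CPM of BCL2 although its TPM lay above. BIK stands on the plus strand of chromosome 22, 43506754 to 43525718, as ENSG00000100290.2. It was 3.13-fold below BAD in the mean (log2 ratio -1.65 ± 0.0045), larger than the spread. The counting intervals of BAD over BIK were wider than this SD of 2 libraries, 2.71 to 3.64 in replicate 1 and 2.70 to 3.63 in replicate 2.

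BCL2L11 encodes BIM, an activator that binds every main guardian and is marked for degradation by ERK signalling. It had 355 and 335 reads, or 2.01 TPM (1.81 to 2.23) and 1.90 TPM (1.70 to 2.11), on the plus strand of chromosome 2, 111876955 to 111926024 (ENSG00000153094.17). BID exceeded it 11.4-fold in both replicates (10.2 to 12.7 in replicate 1 and 10.2 to 12.8 in replicate 2), larger than the spread. The replicates thus gave the same ratio within counting error.

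PMAIP1 encodes NOXA, a BH3-only protein that binds MCL1 in preference to the other guardians and is known as a target of p53 and of the integrated stress response. It had 42 and 40 reads, or 0.709 TPM (0.511 to 0.959) and 0.675 TPM (0.482 to 0.919), and 1.02 and 1.08 CPM, just above the detection limit of 1 CPM. PMAIP1 (ENSG00000141682.11) lies on the plus strand of chromosome 18, 57567180 to 57571538. It stood 120-fold below MCL1 in the mean (log2 ratio -6.91 ± 0.17), with counting intervals of 96.7 to 182 in replicate 1 and 81.0 to 155 in replicate 2. BCL2L11 exceeded it 2.84-fold in replicate 1 (2.06 to 4.0) and 2.81-fold in replicate 2 (2.02 to 4.01), larger than the spread.

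The PMAIP1 window is shown for its repeated GC boxes, and a link between them and its level was not tested. The 250 bases before the start, chr18:59899746-59899995 on the plus strand, are 72.8% G or C and hold 4 matches to GGGCGG or its reverse complement CCGCCC, in capitals. At least 1 such match occurred in 42.6% of all windows and 4 or more in 7.63%. Among the 7 members with a window, BID also had 4 matches, BCL2L11 3, BAX and BAD 1 each, and BCL2 and BCL2L1 none. The estrogen response half-site AGGTCA or TGACCT, present in 12.1% of all windows, occurred in none of these 7 windows, which says only that these letters are not there.
PMAIP1: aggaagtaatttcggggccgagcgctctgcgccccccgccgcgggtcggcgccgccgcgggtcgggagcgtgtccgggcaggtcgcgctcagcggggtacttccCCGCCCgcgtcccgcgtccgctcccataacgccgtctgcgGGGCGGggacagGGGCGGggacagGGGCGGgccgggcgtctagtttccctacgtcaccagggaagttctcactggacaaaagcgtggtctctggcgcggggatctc

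BAD held 44.2% and 44.6% of the summed TPM of the 5 BH3-only genes in replicates 1 and 2, and BID held 37.3% and 36.7%. BIK held 14.1% and 14.3%, BCL2L11 3.28% and 3.23%, and PMAIP1 1.16% and 1.15%. The order within these shares depends on the length scale. In CPM BID held 59.0% and BAD 27.4% on average, and BCL2L11 held 7.82% and BIK 4.87%, so both pairs changed places. Over bases that no other gene covers the order stayed, and BAD held 51.1% and BID 32.6% on average. The summed level of the 4 guardians was 160 TPM in replicate 1 and 137 in replicate 2, against 61.3 and 58.8 TPM for the 5 BH3-only genes, a ratio of 2.6 and 2.33. This ratio was computed in TPM alone and can change with the length scale. Its sums cover the members alone and leave out other detected BH3-only genes, such as BBC3 and BMF. It therefore does not give the balance of the whole family.

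**Figure D2:**
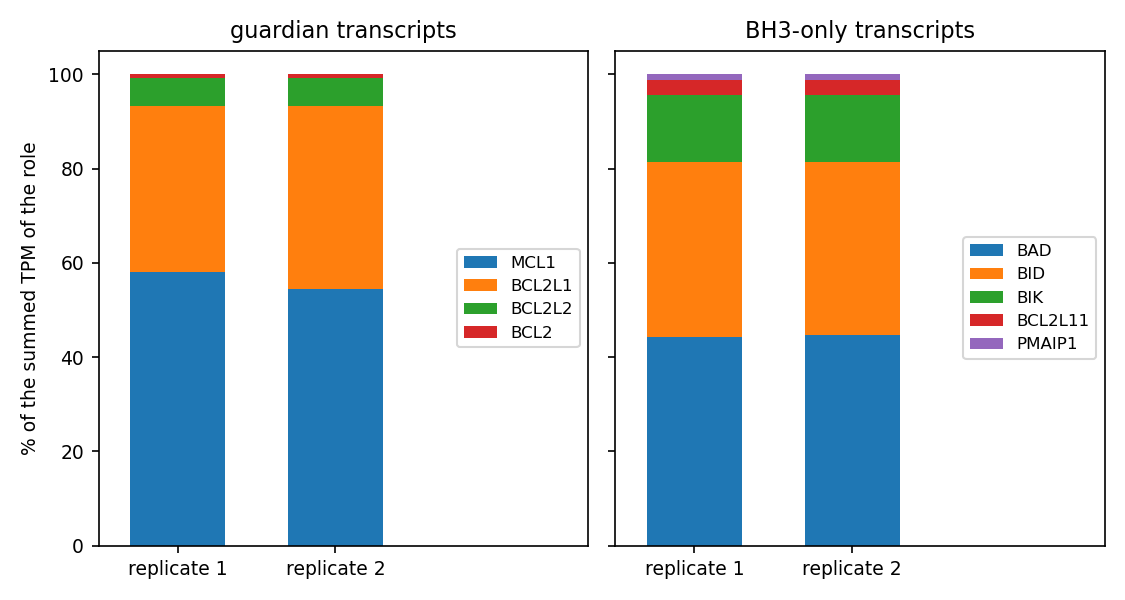
Percent of the summed TPM of the 4 guardians (left) and of the 5 BH3-only genes (right) held by each member in each replicate; bars start at 0 and add to 100. MCL1 and BCL2L1 fill most of the guardian bars, and BAD and BID most of the BH3-only bars.

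Ordered by mean TPM, the members ran MCL1, BCL2L1, BAD, BID, BAX, BCL2L2, BIK, BCL2L11, BCL2 and PMAIP1. Of the 9 steps between neighbours 5 were larger than the replicate spread: MCL1 to BCL2L1, BCL2L1 to BAD (2.05-fold), BID to BAX (2.12-fold), BIK to BCL2L11 (4.36-fold) and BCL2L11 to BCL2 (1.61-fold). The step between BIK and BCL2L11 was the widest of the 9 in TPM. In CPM, without exon length, BIK at 5.48 lay below BCL2L11 at 8.79 and BCL2 at 6.30, the step from BCL2L11 to BCL2 did not exceed the spread (log2 ratio 0.48 against 0.53), and the widest step was BIK to PMAIP1 (5.24-fold).

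The other 4 neighbour pairs did not differ beyond that spread. They were BAD and BID, BAX and BCL2L2 (1.17-fold and 1.19-fold), BCL2L2 and BIK, and BCL2 and PMAIP1. BCL2L2 stood 1.11-fold above BIK in replicate 1 (0.962 to 1.29) and 0.972-fold in replicate 2 (0.836 to 1.13), so their order turned between the libraries. BCL2 exceeded PMAIP1 1.76-fold in both libraries (1.26 to 2.50 and 1.25 to 2.52), below the spread of 2.03-fold among genes of 1 to 2 CPM. Over all 45 pairs of members 40 differed beyond the spread, and the fifth exception was BAX and BIK. The same share among pairs of other detected genes was not computed. The counts of steps and pairs therefore cannot be read as a trait of this family.

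**Figure D3:**
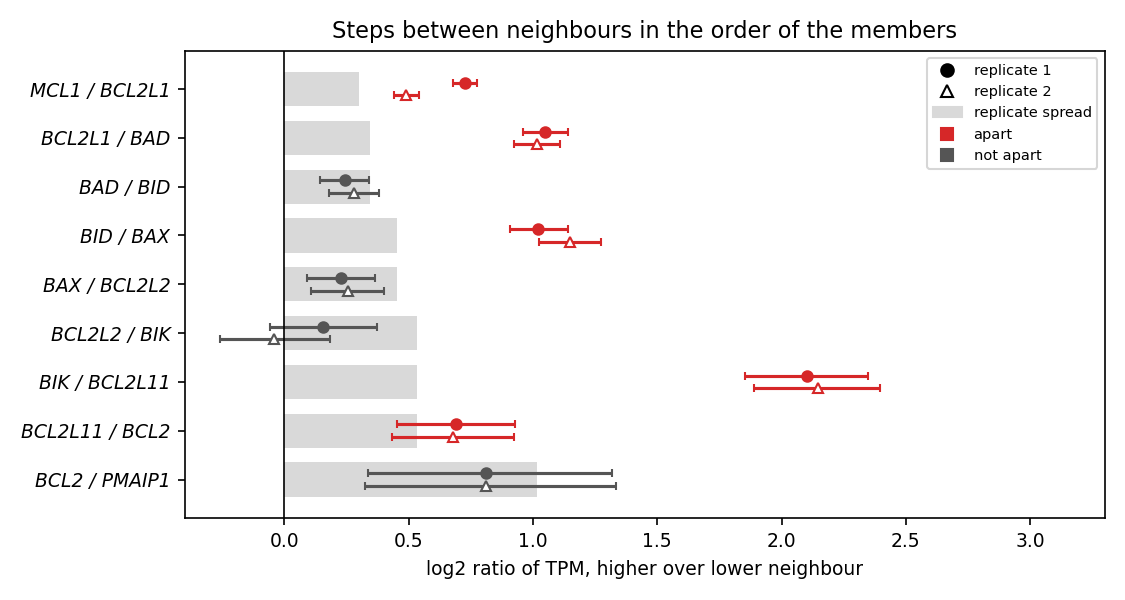
Log2 ratio of TPM of each member over its lower neighbour in replicate 1 (circles) and replicate 2 (triangles) with exact 95% counting intervals; grey bars show the replicate spread for genes of like CPM. Red steps (5 of 9) exceed the spread in the mean with intervals clear of 0, and grey steps do not.

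None of the 10 members differed between the libraries beyond the 95th percentile of genes of like CPM, against 5.02% of the 14668 genes with 1 CPM or more on average, a share that the rule sets. Their absolute log2 differences in CPM lay between 0.055 (BAX) and 0.16 (MCL1). In CPM 7 members were higher in replicate 2 and 3 (MCL1, BAX and BCL2L2) lower, and 56.2% of protein-coding genes at this level were lower there. In TPM all 10 were lower in replicate 2, so the direction depends on the scale for 7 members and not for MCL1, BAX and BCL2L2. MCL1 was the only member whose counting interval between libraries excluded 1 downward in CPM, with replicate 2 at 0.894 of replicate 1 (0.869 to 0.920), and BCL2L1 the only one upward, at 1.05 (1.01 to 1.10).

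Other genes of the pathway were taken from lists of 64 genes, of which 57 were detected. Of 13 other genes of the BCL2 family 8 were detected, with a list median of 3.93 TPM. The mitophagy receptor BNIP3L led with 31.4 ± 7.32 TPM, followed by BAK1 with 28.0 ± 2.41 and the effector-like BOK with 22.7 ± 1.48 TPM. BBC3, which encodes the BH3-only protein PUMA, had 2.47 and 2.12 TPM, and BMF, a BH3-only protein that binds dynein light chain, 4.60 and 3.25 TPM. In TPM these levels place BBC3 and BMF between BIK and BCL2L11. In CPM BBC3 at 4.92 lay below both of those genes and BMF at 14.3 above both. Whether these steps exceed the replicate spread was not computed.

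The 5 family genes not detected were HRK with 21 and 13 reads, BCL2L14 with 16 and 7, BCL2A1 with 4 and 0, BCL2L15 with 0 and 2, and BCL2L10 with none. BCL2A1 encodes a guardian known mainly from blood cells. For a count of 0 the floor of 3 reads is 0.0725 CPM in replicate 1 and 0.0806 CPM in replicate 2.

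Downstream of the members, all 13 genes of mitochondrial release and caspase activation were detected, with a median of 13.2 TPM. The outer membrane channel genes VDAC3 (129 ± 14.9), VDAC1 (116 ± 22.2) and VDAC2 (115 ± 17.7 TPM) were highest. Pseudogenes named after VDAC1 held 1135 and 907 reads, and those named after VDAC2 held 2041 and 1663. How alike their sequences are was not measured. Some reads of VDAC1 and VDAC2 may have gone to these pseudogenes or uncounted, which was not tested. Of the 6 inhibitors of apoptosis 5 were detected, led by BIRC2 with 31.9 ± 6.88, BIRC6 with 28.3 ± 3.41 and BIRC5 (survivin) with 21.6 ± 4.09 TPM, and the list median was 14.2 TPM. BIRC7, with 13 and 17 reads, was not detected.

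The death receptor arm, which reaches the family through BID, had 9 of 10 genes detected and a median of 8.13 TPM. TNFRSF10B, a receptor for TRAIL, led with 15.4 ± 0.604 TPM, followed by the kinase RIPK1 with 12.7 ± 0.680 and TNFRSF10A with 10.6 ± 0.954 TPM. CASP10, with 2 and 0 reads, was not detected. All 22 regulators and partners of the members were detected, with a median of 45.8 TPM. YWHAG (159 ± 28.9) and YWHAB (147 ± 21.6), adaptors of the family that holds phosphorylated BAD in the cytosol, and DYNLL1 (142 ± 13.2 TPM), the dynein light chain that binds BIM, were highest.

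Of the 57 pathway genes with 1 CPM or more on average, 4 (BNIP3, BNIP3L, ENDOG and YWHAQ) differed between the libraries beyond the 95th percentile of their CPM class, 7.02% beside the background of 5.02%. These 4 were named after their values were seen.

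**Figure D4:**
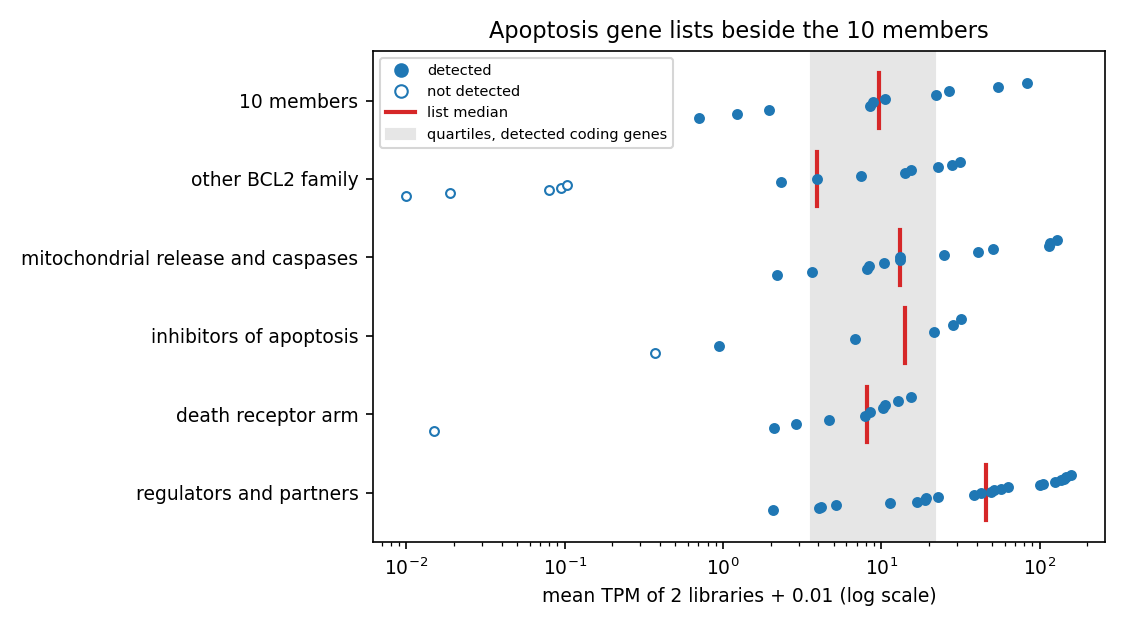
Mean TPM of the 2 libraries (log scale, 0.01 added for display) of the 10 members and of the genes of 5 apoptosis lists; filled points were detected, open points were not, red lines are list medians and the grey band spans the quartiles of detected protein-coding genes. The members range from 0.692 to 83.6 TPM with a median of 9.69, and the regulators and partners have the highest list median, 45.8 TPM.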

How the data were processed

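Per the file headers, featureCounts 2.0.2 was run by the authors on exons of GENCODE release 19 and summed by gene, and the deposited values are raw counts. Its command sets no strand, paired-end, multimapping or overlap option. HISAT2 and hg19 (GRCh37) are named in the submitters' processing notes; the sources used here give no HISAT2 version. The 2 labelled samples were found among the columns by the line, the residue number and the replicate, since column names omit the siRNA. Another 8 columns of per-sample values match no sample described here and were not used.

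CPM used each library's total of deposited counts, and TPM the exon lengths of the same table. Symbols matched 51996 of 57820 identifiers, and gene types came from GENCODE release 29. Overlap of exons was computed on either strand from the table's coordinates. A level over bases that no other gene covers needed at least 100 such bases. Counting intervals are exact Poisson for a count and exact conditional binomial for a ratio, at 95%, and cover counting error only, as the labels name no molecular identifiers; 3 reads served as the limit that a count of 0 allows. The replicate spread was taken in 9 CPM classes. TMM library sizes for the alternatives came from edgeR 4.0.16. The intervals and the rule for differences between replicates were run on simulated Poisson counts. Those counts hold counting error alone, so the run cannot show how the rules behave under other error between libraries or genes. The rule that calls a ratio of genes larger than the spread was not simulated. With 1 group no p-value was computed, and with 2 libraries no likeness of pattern between genes.

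Genes named beyond the members were the 3 highest and the undetected genes of each list, with BAK1, BBC3, BMF and BCL2A1, except where said. PECAM1 was not matched by symbol. Members, lists and rules were chosen with earlier results of these data known. Promoter windows came from RefSeq (GRCh38.p14) and their coordinates were not combined with those of the counts.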

Additional observations from a re-analysis of the deposited data

How the results depend on the processing

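The count of 10 detected members was 9 at a limit of 3 CPM, where PMAIP1 dropped out, and 10 at 0.5 CPM, with TMM library sizes and from either replicate alone. All 10 named pairs kept their direction and their call in CPM, over bases that no other gene covers, with the spread at the 99th percentile and from either replicate alone. In CPM the size of 8 of these pairs moved by over 1.5 times: BCL2 was 19.4-fold below BCL2L1 and 37.6-fold below MCL1, PMAIP1 227-fold below MCL1 and BIK 5.61-fold below BAD. BCL2L2 was 3.98-fold and BAX 2.91-fold above BCL2, BCL2L11 8.41-fold above PMAIP1 and BID 7.55-fold above BCL2L11. Over uncovered bases only the named pairs with BCL2L2 or BAD could change, since no other gene of these pairs shares exon bases. There BCL2L2 was 9.63-fold above BCL2 and BIK 4.10-fold below BAD. Of 9 neighbour steps 5 exceeded the spread; the count was 6 in CPM and over uncovered bases, each in its own order, 5 at the 90th percentile, 4 at the 99th, and 5 from either replicate. Over uncovered bases BAX and BCL2L2 changed places. In CPM they did too, BID passed BAD, BIK fell below BCL2L11 and BCL2, and the step from BCL2L11 to BCL2 lost its call. The median member level of 9.69 TPM was 10.95 over uncovered bases, 34.4 TPM scaled over nuclear protein-coding genes, 21.7 CPM, 6.53 as reads per kilobase scaled to TMM library sizes, and 9.06 to 10.4 TPM from single replicates; these scales differ by construction. The MCL1 share of the guardians, 56.3% on average, was 60.7% in CPM, where exon length is not divided out, and 54.4% to 58.1% from single replicates. No member passed the replicate rule under any of its 4 alternatives. The 57 detected pathway genes became 56 without FADD, of whose exon bases other genes cover 54.9%, and stayed 57 otherwise. No paired analysis was possible because the labels give 1 group. Depth limits PMAIP1 most, with 42 and 40 reads.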
